A study of Mus musculus with 8 samples.

Results

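The 9 genes described here encode enzymes that make nitric oxide, or that supply the precursor of prostaglandins, make them or degrade them. They were Nos2, Pla2g4a, Ptgs1, Ptgs2, Ptges, Ptges2, Ptges3, Ptgis and Hpgd, taken by symbol from the 52325 gene identifiers measured, and all 9 passed the filter of at least 0.5 TPM, a level scaled to transcript length and library total, in at least 4 of the 8 libraries, as did 17177 identifiers in all. They were chosen by enzyme family after TPM differences between the genotypes had been seen in the same libraries, so their genotype values, and the calls stated for them, are a description and not independent evidence of a difference. RNA was sequenced from costal chondrocytes, the cartilage cells of the ribs, released by collagenase from 7-day-old mice on a C57BL/6J background. A wild-type group of 4 libraries was compared with 4 libraries of Mir140-null mice, in which CRISPR/Cas9 deletion removed the miRNA gene Mir140. The study bred the genotypes as a wild-type and a null line after founders of mixed C57BL/6 and CBA/ca origin, so line and genotype cannot be told apart. The deletion is present in every tissue, and the sources used here do not say whether 1 library holds RNA of 1 mouse.

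Cytosolic phospholipase A2 releases arachidonic acid from membrane lipids, cyclooxygenases turn it into prostaglandin H2, and terminal synthases convert that into prostaglandin E2, prostacyclin and the other prostanoids. Inducible nitric oxide synthase makes nitric oxide from arginine. In chondrocytes, Nos2, Ptgs2 and Ptges are known as genes that interleukin-1 and other inflammatory signals switch on, while Ptgs1, Ptges2 and Ptges3 are regarded as constitutive.

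The null mice lack every mature miRNA of Mir140, and this loss defines the comparison. One of these miRNAs comes from the other side of the Mir140 stem loop and is not shown. The paper reports that it made the largest contribution to target repression in these mice. Shown here is only miR-140-3p, from its RefSeq mature entry. The annotated form, miR-140-3p.2, is followed by the one that starts 1 base later, miR-140-3p.1, and capitals mark the seed (bases 2 to 8), which differs between them.
miR-140-3p.2: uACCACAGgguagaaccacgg
miR-140-3p.1: aCCACAGGguagaaccacgg
A 7-base match to these seeds, CTGTGGT or CCTGTGG, was sought in the longest annotated 3'UTR (GENCODE M21) of each tested gene with one. Of 12981 such genes, 19.0% held the first and 20.2% the second. Among the 9 enzymes, Ptges held 1 CCTGTGG match, and Ptges2 held 3 CCTGTGG and 2 CTGTGGT matches. The 3'UTRs of the other 7 held neither of these matches. Matches to the seed of the miRNA from the other side of the stem loop were not sought in any gene. A gene without a match here may therefore still hold one to that miRNA. A match is a description of the letters and not evidence of a site that is used.

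RefSeq promoters (250 bases before to 50 bases after the annotated start, build GRCm38.p6) were found for 7 of the 9 genes, and those of Nos2 and Ptgis were not among them. The promoters of Ptgs2 at chr1:150099781-150100080 on the plus strand, Ptges at chr2:30903248-30903547 on the minus strand and Ptges3 at chr10:128058732-128059031 on the plus strand are shown, since the values of these genes carry most of what follows. Capitals mark the script-found motifs, on either strand, of a set of 7: the C/EBP core TTGCNNAA, the E-box CACGTG, the cyclic AMP response element core TGACG, the GC box GGGCGG, the TATA box TATAAA, the AP-1 site TGANTCA and the NF-kB consensus.
Ptgs2: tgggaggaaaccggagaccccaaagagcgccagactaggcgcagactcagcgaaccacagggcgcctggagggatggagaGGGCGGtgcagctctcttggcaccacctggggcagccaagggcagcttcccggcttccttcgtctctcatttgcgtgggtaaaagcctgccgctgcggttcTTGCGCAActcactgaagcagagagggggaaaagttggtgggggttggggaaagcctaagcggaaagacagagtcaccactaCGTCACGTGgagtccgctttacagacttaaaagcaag
Ptges: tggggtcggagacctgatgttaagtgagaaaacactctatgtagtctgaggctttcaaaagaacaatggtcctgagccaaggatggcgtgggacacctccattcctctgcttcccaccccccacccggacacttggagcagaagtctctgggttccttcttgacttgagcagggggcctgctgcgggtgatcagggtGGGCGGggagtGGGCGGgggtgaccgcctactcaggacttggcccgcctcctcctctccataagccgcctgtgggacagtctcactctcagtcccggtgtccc
Ptges3: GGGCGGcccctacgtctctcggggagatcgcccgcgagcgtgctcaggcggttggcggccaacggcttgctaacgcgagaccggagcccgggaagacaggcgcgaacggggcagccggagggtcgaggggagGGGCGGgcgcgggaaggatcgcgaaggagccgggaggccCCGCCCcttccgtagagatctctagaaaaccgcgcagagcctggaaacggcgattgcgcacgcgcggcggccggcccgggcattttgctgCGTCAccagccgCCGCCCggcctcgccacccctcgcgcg
The 2 inducible prostaglandin genes differed in these letters. With the start base counted as 0, the Ptgs2 window held a C/EBP core at -69 to -62, a reversed cyclic AMP response element core at 13 to 17 that overlaps an E-box at 16 to 21, and 1 GC box. The Ptges window held 2 GC boxes, at -53 to -48 and at -42 to -37, and no match to the other 6. Ptges3 held 4 GC boxes and 1 reversed cyclic AMP response element core in a window of 73.7% G and C. Of all 32851 promoters in the table, 10.8% held the C/EBP core, 7.15% the E-box, 20.8% the cyclic AMP response element core, 35.7% the GC box, 13.6% the TATA box, 7.81% the AP-1 site and 4.51% the NF-kB consensus.

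The 9 genes also differed in a 3'UTR feature that the choice of genes did not use, the pentamer ATTTA, the core of AU-rich elements known from short-lived inflammatory mRNAs. The Ptgs2 3'UTR held 14 copies in 2445 bases, a number reached by 2.85% of the 12981 genes. Per kilobase, Pla2g4a held 9.03 copies, Nos2 5.98, Ptgs2 5.73, Hpgd 4.77, Ptges3 3.37 and Ptges2 1.16, against a median of 1.30 over all these genes. Ptges, Ptgs1 and Ptgis held no copy.

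The libraries had the profile of cartilage, with Col2a1, the main cartilage collagen, at 47894 to 61630.1 TPM in wild-type and 34418 to 48361 TPM in Mir140-null libraries. The 8 chondrocyte markers summed to 54304 to 69136 and 40108 to 54991 TPM, and 3 were called, Acan higher and Col9a1 and Hapln1 lower in Mir140-null. Mir140 itself had 8.86 TPM in Mir140-null replicate 2 by its label and was listed at 0 in the other 7 libraries, so its TPM could not check the labels. The libraries of Mir140-null replicates 1 and 2 stood apart from the other 6. Their 6 fibroblast or perichondrium markers summed to 242 and 246 TPM, against 2063 to 4282 TPM in the other 6 libraries, and they held 15800 and 16056 genes at 0.5 TPM or more, against 16991 to 17950. Both also had the lowest sums of smooth muscle (20.9 and 18.2 TPM), endothelial (3.41 and 4.85) and osteoblast markers (2.81 and 2.37). The same held for erythroid (303 and 163) and megakaryocyte or platelet markers (3.70 and 5.09). Their macrophage sums were the highest (133 and 124). Neutrophil, mast cell, skeletal muscle and adipocyte sums did not set both apart. The mitochondrial genome gave 4.06% to 6.99% of wild-type TPM and 8.41% to 10.1% of Mir140-null TPM. Results are therefore also given without Mir140-null replicates 1 and 2, and the part of these differences in the values below was not tested except where stated. In RNA from many cells, fewer cells of a type and less RNA per cell cannot be told apart. Read depth is unknown, because TPM do not keep it.

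In all, 5 enzymes were higher and 1 was lower in all Mir140-null libraries than in all wild-type libraries. The 5 were Nos2, Ptges, Pla2g4a, Ptges3 and Ptgs2, and the 1 was Hpgd, which degrades prostaglandins. Ptgs1, Ptges2 and Ptgis overlapped between genotypes. Across the 17177 genes tested, every Mir140-null library lay above every wild-type library for 15.7% of genes and below for 10.2%. In limma on log2(TPM + 1), with a Benjamini-Hochberg adjusted p under 0.05 as the call, 4 of the 9 (Nos2, Ptgs2, Ptges and Ptges3) were called higher and 5 were not called, where 10.5% of all genes were called higher and 6.4% lower. These counts describe genes that were picked with the contrast known and support nothing by themselves. The median log2 fold change of the 9 was 0.86, beside -0.01 over all genes tested.

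**Figure D1:**
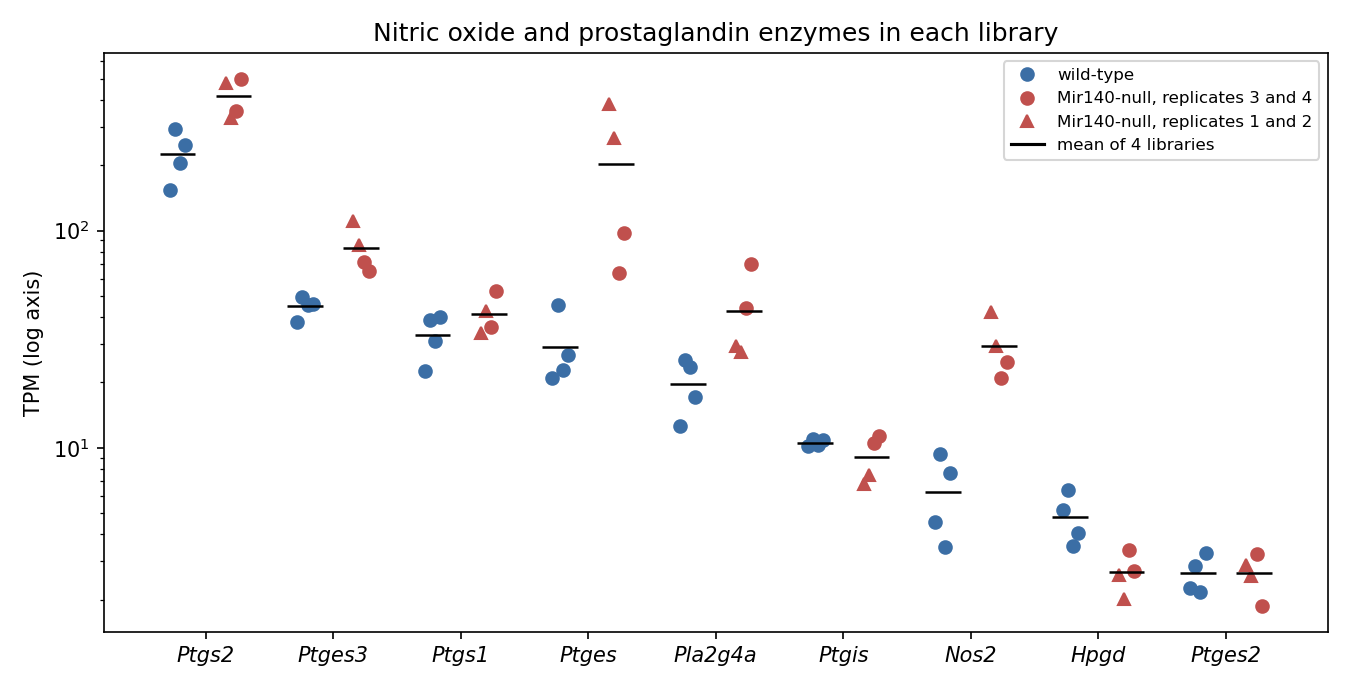
TPM of the 9 enzyme genes in each library on a log axis, with wild-type in blue and Mir140-null in red (triangles, replicates 1 and 2) and black lines at the mean of 4 libraries. Nos2, Ptges, Pla2g4a, Ptges3 and Ptgs2 lay higher and Hpgd lower in every Mir140-null library, and Ptgs1, Ptgis and Ptges2 overlapped.

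Nos2 (ENSMUSG00000020826), the inducible nitric oxide synthase on chromosome 11 from 78920787 to 78960254 (GRCm38, plus strand), was measured at 4.53, 9.31, 3.48 and 7.63 TPM in wild-type replicates 1 to 4. In Mir140-null replicates 1 to 4 it was measured at 42.3, 29.3, 21.04 and 24.7 TPM. Every Mir140-null library was above every wild-type library, and replicate 1 was the highest. Wild-type libraries averaged 6.24 ± 2.70 TPM and Mir140-null libraries 29.4 ± 9.30 TPM (SD, n = 4), a ratio of 4.71. The log2 fold change of TPM + 1 was 2.10 (SE 0.31), a call that held when any 1 library was left out. Without Mir140-null replicates 1 and 2 it was 1.80 (SE 0.36) and no longer called.

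Pla2g4a (ENSMUSG00000056220), cytosolic phospholipase A2, lies on chromosome 1 from 149829618 to 149961290 (minus strand), next to Ptgs2. Wild-type replicates 1 to 4 had 12.6, 25.5, 23.4 and 17.1 TPM, and Mir140-null replicates 1 to 4 had 29.5, 27.5, 43.9 and 69.9 TPM. The genotypes did not overlap, but the lowest Mir140-null library exceeded the highest wild-type library by little. Unlike Nos2, Pla2g4a was highest in Mir140-null replicates 3 and 4. The ratio of the means was 2.17, the log2 fold change was 1.03 (SE 0.33), and the gene was not called. Without Mir140-null replicates 1 and 2 the log2 fold change was 1.498 (SE 0.33), also not called. It was called only with 1 factor of unwanted variation and with sample quality weights.

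Both cyclooxygenase genes were expressed, and only the inducible one separated the genotypes. Ptgs2 (ENSMUSG00000032487; cyclooxygenase-2; chromosome 1, 150100031 to 150108227, plus strand) had the highest TPM of the 9 genes in all 8 libraries. Its wild-type mean stood at percentile 96.8 of the genes tested. Wild-type replicates 1 to 4 had 154, 293, 204 and 248 TPM, and Mir140-null replicates 1 to 4 had 477, 329, 355 and 497 TPM. No Mir140-null library fell within the wild-type range. The means, 225 ± 59.6 and 415 ± 84.8 TPM (SD, n = 4), had a ratio of 1.84, and the log2 fold change was 0.90 (SE 0.22). This call was lost without wild-type replicate 1, 3 or 4 (log2 fold change 0.73, 0.86 and 0.96) or Mir140-null replicate 1, 2 or 4 (0.82, 0.999 and 0.80).

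Ptgs1 (ENSMUSG00000047250; cyclooxygenase-1; chromosome 2, 36230426 to 36252272, plus strand) had 22.6, 38.9, 31.1 and 40.1 TPM in wild-type replicates 1 to 4, beside 33.9, 42.5, 35.96 and 52.7 TPM in the Mir140-null replicates. The genotypes overlapped, with a log2 fold change of 0.32 (SE 0.21). Within each library, TPM of Ptgs2 were 6.19 to 7.54 times those of Ptgs1 in wild-type and 7.74 to 14.1 times in Mir140-null, 2 ranges that did not overlap. TPM are scaled to transcript length, so levels of different genes in 1 library can be set side by side.

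Of the 3 prostaglandin E synthase genes, Ptges, the inducible microsomal enzyme, differed most. Ptges (ENSMUSG00000050737; chromosome 2, 30889471 to 30929863, minus strand) was measured at 20.96, 45.2, 22.8 and 26.8 TPM in wild-type replicates 1 to 4. The Mir140-null replicates had 382, 266, 63.8 and 97.0 TPM, in the same order. All Mir140-null libraries were above all wild-type libraries, and replicates 1 and 2 were above replicates 3 and 4. The ratio of the means was 6.99 over all libraries and 2.78 with Mir140-null replicates 3 and 4 alone. The log2 fold change was 2.48 (SE 0.56), and 1.48 (SE 0.34) without Mir140-null replicates 1 and 2, when it was not called. The call was also lost without wild-type replicate 1, 3 or 4 (2.35, 2.39 and 2.46) and without Mir140-null replicate 2 (2.23). A processed pseudogene, Gm13400, overlaps Ptges on the same strand, so their reads may not be fully separated.

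Ptges3 (ENSMUSG00000071072; chromosome 10, 128058954 to 128077272, plus strand), the cytosolic synthase also known as the Hsp90 co-chaperone p23, was at 38.1, 49.6, 45.5 and 45.6 TPM in wild-type. The Mir140-null replicates had 111, 85.6, 71.3 and 64.9 TPM, all above the wild-type range. The ratio of the means was 1.86 and the log2 fold change 0.86 (SE 0.17). The call was lost without Mir140-null replicate 2, at 0.83, and without replicates 1 and 2 together, at 0.60 (SE 0.13). A processed pseudogene copy, Ptges3-ps, may share reads with it. Ptges2 (ENSMUSG00000026820; chromosome 2, 32395896 to 32405772, plus strand), the other microsomal enzyme, was at 2.18 to 3.27 TPM in wild-type libraries and 1.88 to 3.24 TPM in the others, ranges that overlapped almost fully, with a log2 fold change of -0.0023 (SE 0.17).

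The makeup of the synthases differed accordingly. Ptges3 was the most abundant of the 3 genes in every wild-type library and Ptges made up 32.4% to 46.3% of their summed TPM. In Mir140-null replicates 1 to 4, Ptges made up 77.0%, 75.1%, 46.1% and 59.2%, and it was the most abundant in replicates 1, 2 and 4. Replicate 3 lay just below wild-type replicate 2, so the ranges of this share overlapped. Relative to Ptgs2, the enzyme that acts before it, Ptges had 0.108 to 0.154 of its TPM in wild-type and 0.180 to 0.810 in Mir140-null, without overlap.

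**Figure D2:**
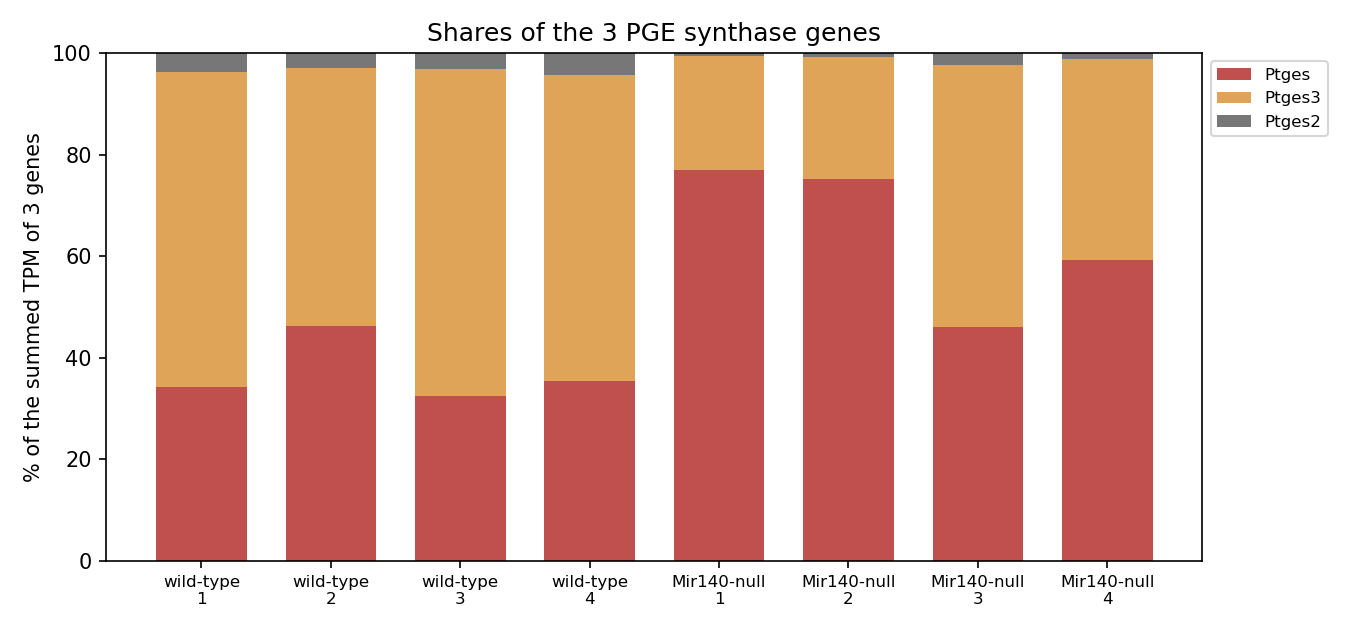
Share of Ptges, Ptges3 and Ptges2 in the summed TPM of the 3 genes, in % for each of the 8 libraries. Ptges took the largest share in Mir140-null replicates 1, 2 and 4, and Ptges3 in the other 5 libraries.

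The genes for prostacyclin synthesis and for prostaglandin breakdown did not follow the inducible enzymes. Ptgis (ENSMUSG00000017969; prostacyclin synthase; chromosome 2, 167191805 to 167240604, minus strand) was at 10.1, 11.0, 10.3 and 10.8 TPM in wild-type replicates 1 to 4, beside 6.79, 7.46, 10.5 and 11.3 TPM in the Mir140-null replicates. Mir140-null replicates 1 and 2 lay below the wild-type range, replicate 3 lay within it and replicate 4 lay just above it. The log2 fold change was -0.23 (SE 0.17) with all libraries and 0.04 (SE 0.11) without replicates 1 and 2, so its sign rests on those libraries.

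Hpgd (ENSMUSG00000031613; chromosome 8, 56294585 to 56321043, plus strand), the 15-hydroxyprostaglandin dehydrogenase that inactivates prostaglandin E2, was at 5.16, 6.38, 3.52 and 4.06 TPM in wild-type. The Mir140-null replicates had 2.61, 2.01, 3.40 and 2.71 TPM, all below the wild-type range, though replicate 3 lay close to wild-type replicate 3. The ratio of the means was 0.56 and the log2 fold change -0.64 (SE 0.19), which was not called. TPM of Ptges were 4.06 to 7.08 times those of Hpgd in wild-type and 18.8 to 146 times in Mir140-null, and those of Ptgs2 were 29.8 to 61.1 and 105 to 184 times, neither pair of ranges overlapping. That follows from the non-overlap of the genes themselves and is not a further result.

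**Figure D3:**
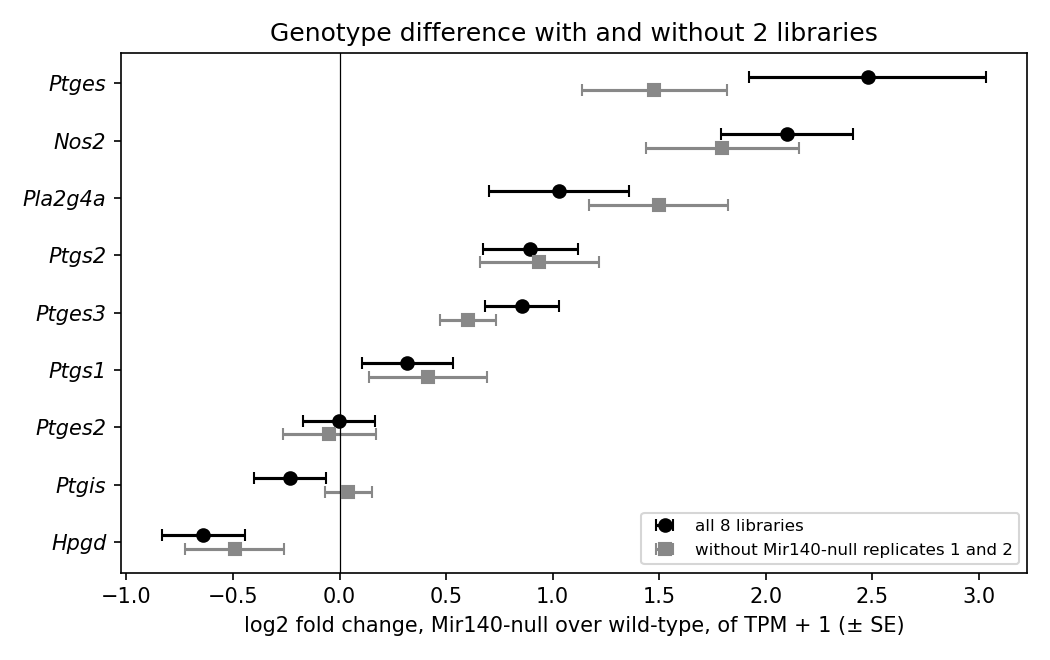
Log2 fold change of TPM + 1, Mir140-null over wild-type, with its SE for the 9 genes, with all 8 libraries (black circles) and without Mir140-null replicates 1 and 2 (grey squares). Ptges moved most between these fits, from 2.48 to 1.48, and Ptgis moved across 0, from -0.23 to 0.04.

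In wild-type libraries the order by mean TPM was Ptgs2, Ptges3, Ptgs1, Ptges, Pla2g4a, Ptgis, Nos2, Hpgd and Ptges2. The ranges of Ptges3 and Ptgs1, of Ptgs1 and Ptges, of Ptges and Pla2g4a, and of Nos2 and Hpgd overlapped across libraries. Within libraries, however, Ptges3 was above Ptgs1 in all 4, whereas the order of the other 3 pairs changed between libraries. In Mir140-null libraries the order was Ptgs2, Ptges, Ptges3, Pla2g4a, Ptgs1, Nos2, Ptgis, Hpgd and Ptges2. There, only Nos2 and Ptgis, and Ptgis and Hpgd, were neighbours with separate ranges, although Ptgs2 was above Ptges in each of the 4 libraries. Nos2 was below Ptgis in all 4 wild-type libraries and above it in all 4 Mir140-null libraries.

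Within genotypes the members fell into more than 1 pattern. Deviations of log2(TPM + 1) from the genotype mean, over 8 libraries, gave a Pearson r of 0.88 between Ptges and Ptges3, 0.77 between Nos2 and Ptges and 0.70 between Nos2 and Ptges3. Pla2g4a varied instead with Ptgis (r = 0.79), and Ptgis varied against Ptges (r = -0.82). These are descriptions over 8 libraries in which Mir140-null replicates 1 and 2 weigh heavily. Among 9468 genes with a mean of at least 5 TPM, the patterns most like that of Nos2 were those of Arhgef17, Tgfb1 and Mylk2 (r from 0.96 to 0.97), and those most like Ptges were Arfgap3, Sept5 and Eif4b (0.984 to 0.997). For Ptgs2 they were Fgf18, Steap1 and Col6a3 (0.96 to 0.97), and for Ptges3 Psmd12, Rabggta and Mrps18b (0.98 to 0.99). For Pla2g4a they were S100a6, Gm6145 and Gm23497 (0.97 to 0.98), for Ptgs1 Gm44017, Ddit4l and Desi2 (0.97 to 0.98), for Ptgis Bnip3l, Ccdc80 and Adgra2 (0.99), for Ptges2 Hps1, Atp6v1f and Fam162a (0.95 to 0.96), and for Hpgd Zfpl1, Tgfb1i1 and Ltbr (0.93 to 0.94).

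Markers of other cell types moved with some of these values. The fibroblast or perichondrium list summed to 2063 to 4282 TPM in wild-type libraries. The Mir140-null replicates 1 to 4 had 242, 246, 3801 and 2440 TPM. Of its 6 genes, 5 were tested, 1 (Pdgfra) was called higher and Pi16 was under 1 TPM in every library. Most of the sum came from Col1a1, Col3a1 and Postn, so it does not speak for the whole list. Pdgfra went the other way, at 11.8 to 19.8 TPM in wild-type and 34.5, 36.5, 31.5 and 34.3 TPM in Mir140-null replicates 1 to 4. Nos2, Ptges and Ptges3 were highest, and Ptgis lowest, in the 2 libraries where this sum was lowest. In Mir140-null replicates 3 and 4, where the sum was within the wild-type range, Nos2, Ptges, Ptges3, Ptgs2 and Pla2g4a lay above every wild-type library. Mir140-null replicates 1 and 2 were also lowest in the smooth muscle, endothelial, osteoblast, erythroid and megakaryocyte or platelet sums. The part of fibroblast, perichondrium or other cell content in the enzyme values was not tested. The 5 smooth muscle markers summed to 91.2 to 134 TPM in wild-type libraries, against 18.2 to 76.1 TPM without the miRNA gene, and 3 of them, Acta2, Cnn1 and Tagln, were called lower.

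**Figure D4:**
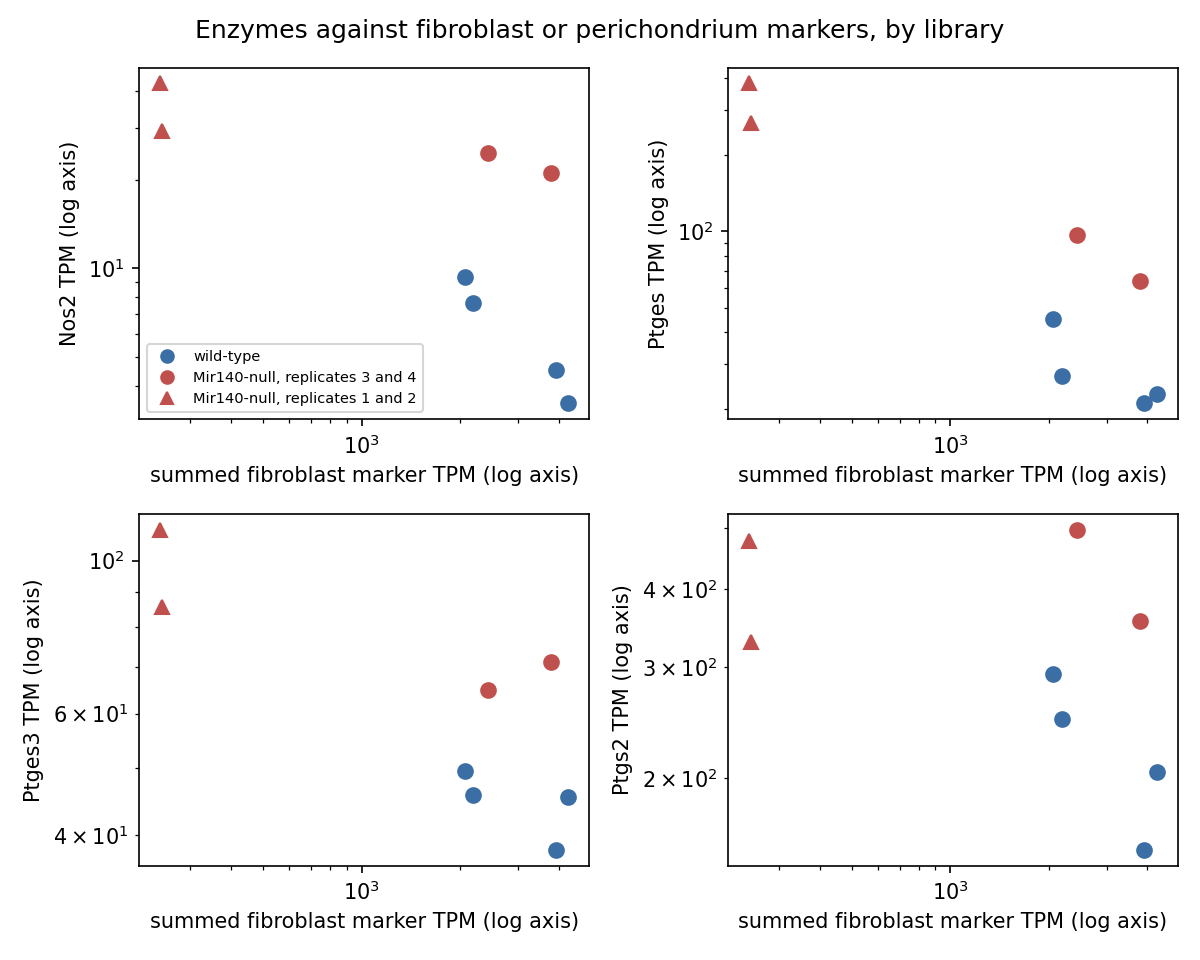
TPM of Nos2, Ptges, Ptges3 and Ptgs2 against the summed TPM of 6 fibroblast or perichondrium markers in each library, both on log axes, with symbols as in the plot of TPM by library. Mir140-null replicates 1 and 2 lie far to the left at 242 and 246 TPM, and replicates 3 and 4 lie at wild-type marker levels but above the wild-type libraries. Col1a1, Col3a1 and Postn make up most of the sum.

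The macrophage markers, which matter because macrophages also express Nos2 and Ptgs2, summed to 35.2 to 61.1 TPM in wild-type libraries and 69.5 to 133 TPM in the others. Of the 7 markers, 4 were tested, 1 was called higher (Cd14) and 1 lower (Lyz2). The sum followed Cd14, at 13.5 to 21.4 TPM in wild-type libraries, beside 116, 107, 40.2 and 38.9 TPM in the Mir140-null replicates. Cd68, a lysosomal protein gene, was at 20.01 to 37.0 TPM in wild-type libraries and 16.0 to 29.4 TPM in the others, and Csf1r at 0.492 to 1.08 and 0.482 to 0.711 TPM. The markers Ptprc and Adgre1 were under 1 TPM in all libraries, C1qa was listed at 0 in 6 of 8, and Lyz2 was lower in every Mir140-null library (0.0455 to 0.617 TPM) than in wild-type (0.881 to 1.51 TPM). Neutrophil markers summed to 1.58 to 3.83 and 2.46 to 5.97 TPM, and mast cell markers to 0.915 to 2.95 and 0.479 to 7.14 TPM. Endothelial markers summed to 5.56 to 20.9 and 3.41 to 27.1 TPM. Of the neutrophil, mast cell and endothelial lists, only 2 of 6, 1 of 6 and 4 of 5 genes were tested, and none was called. The part of macrophages or other cells in the enzyme values was not tested.

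Then 7 lists of related genes, 119 genes in all, were compared between genotypes with limma and a Benjamini-Hochberg adjustment over all 17177 genes, two-sided. The lists were chosen with earlier results of these data known, so their counts are a description. Over all 17177 genes, 10.5% were called higher and 6.4% lower, with a median log2 fold change of -0.01. Of 24 genes listed in the nitric oxide pathway, 19 were tested, 3 rose, 1 fell and 15 did not pass, with a median log2 fold change of -0.02. Slc7a2, a cationic amino acid transporter that carries arginine, rose from 11.7 ± 4.01 to 68.6 ± 15.04 TPM (SD, n = 4; log2 fold change 2.49, SE 0.26, limma adjusted p = 0.00402), and was also called without Mir140-null replicates 1 and 2 (2.23, limma adjusted p = 0.0347). Its wild-type values were 7.21, 15.6, 9.46 and 14.6 TPM and its Mir140-null values 78.6, 82.2, 49.2 and 64.4 TPM, far from overlapping.

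Gch1, which catalyses the rate-limiting step of tetrahydrobiopterin synthesis, rose from 7.73 ± 1.16 to 13.5 ± 2.78 TPM (SD, n = 4; log2 fold change 0.72, limma adjusted p = 0.027). Slc7a1, the other arginine transporter tested, rose from 42.6 ± 11.7 to 69.6 ± 10.5 TPM (0.72, limma adjusted p = 0.046). Arg2, an arginase that uses the same substrate, fell from 2.71 ± 0.53 to 1.11 ± 0.56 TPM (-0.84, limma adjusted p = 0.0332). The most abundant gene of the list, Prmt1, an arginine methyltransferase, was at 52.9 ± 3.47 and 66.9 ± 21.6 TPM and did not pass (limma adjusted p = 0.354). The other tested tetrahydrobiopterin genes, Pts, Spr and Qdpr, named after their values were seen, did not pass (limma adjusted p = 0.0611, 0.219 and 0.11). With 1 library left out at a time, Slc7a2 was called in 8 of 8 fits, Gch1 in 4, Arg2 in 3 and Slc7a1 in 1, and the count of 4 in this list dropped to 1 without wild-type replicate 1, 3 or 4 or Mir140-null replicate 2, and to 2 without Mir140-null replicate 1.

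The genes that supply arachidonic acid moved in both directions. Of 24 listed, 16 were tested, 3 rose, 2 fell and 11 did not pass, with a median log2 fold change of -0.07. Fads1, the delta-5 desaturase that makes arachidonic acid, rose from 19.0 ± 0.30 to 49.7 ± 8.35 TPM (SD, n = 4; log2 fold change 1.33, SE 0.13, limma adjusted p = 0.00353). Lpcat3, which places arachidonic acid in phospholipids, rose from 28.6 ± 8.25 to 57.8 ± 12.0 TPM (1.01, limma adjusted p = 0.027). Plaa, a phospholipase A2-activating protein, rose from 18.1 ± 1.72 to 31.5 ± 5.99 TPM (0.76, limma adjusted p = 0.0163). The 2 genes that fell encode secreted phospholipases, and their calls differed in stability. Pla2g5, the most abundant gene of the list, fell from 101 ± 10.5 to 49.1 ± 11.9 TPM (-1.05, SE 0.17, limma adjusted p = 0.0104), and Pla2g2a from 4.50 ± 2.58 to 1.07 ± 1.25 TPM (-1.48, limma adjusted p = 0.0473). Pla2g5 was called in 8 of 8 fits with 1 library left out and Pla2g2a in 1 of 8, and Pla2g2a was not called without Mir140-null replicates 1 and 2 (limma adjusted p = 0.241). Its wild-type mean holds replicate 2 at 8.33 TPM, beside 2.95 to 3.73 TPM in the others. Pla2g2a reached 0.5 TPM in all 4 wild-type but only 2 Mir140-null libraries, so it passed the filter through the group in which it is high. Fads1 and Pla2g5 were also called without Mir140-null replicates 1 and 2 (limma adjusted p = 0.0123 and 0.0368), and the count of 5 dropped to 3 without wild-type replicate 4 or Mir140-null replicate 1 or 2.

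Among other prostanoid enzymes and transporters, 8 of 11 genes were tested, 2 rose, 1 fell and 5 did not pass, with a median log2 fold change of 0.17. Slco2a1, the transporter that takes prostaglandins into cells, rose from 6.66 ± 2.52 to 22.7 ± 5.95 TPM (SD, n = 4; log2 fold change 1.66, SE 0.29, limma adjusted p = 0.0122). Prxl2b, a prostamide and prostaglandin F synthase, rose from 4.23 ± 1.30 to 10.3 ± 1.04 TPM (1.14, limma adjusted p = 0.0102). Cbr1, a carbonyl reductase that can convert prostaglandin E2, fell from 7.80 ± 1.28 to 4.10 ± 0.46 TPM (-0.78, limma adjusted p = 0.014). Akr1b3, the most abundant, was at 14.0 ± 2.10 and 15.4 ± 4.77 TPM (limma adjusted p = 0.814). Each of the 3 calls held with any 1 library left out, and none passed without Mir140-null replicates 1 and 2 together (limma adjusted p from 0.0669 to 0.0869), with log2 fold changes of 1.34 for Slco2a1, 1.09 for Prxl2b and -0.68 for Cbr1.

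The prostanoid receptors showed no call. Of 9 genes, 4 passed the filter and none was called by limma, with a median log2 fold change of -0.09. Of the 4, 1 had an unadjusted p under 0.05, Ptger4, a prostaglandin E2 receptor named after its values were seen, with means of 2.49 (wild-type) and 1.16 TPM. Ptger1, the most abundant receptor, was at 10.5 ± 3.63 and 8.77 ± 3.37 TPM (SD, n = 4; limma adjusted p = 0.639). In the lipoxygenase branch, which draws on the same arachidonic acid, 7 of 15 genes were tested and 1 rose, with a median log2 fold change of 0.05. That gene, Alox12b, an epidermis-type lipoxygenase, was low, at 0.46 ± 0.14 and 1.26 ± 0.19 TPM (0.64, limma adjusted p = 0.0133). Only 2 wild-type libraries reached 0.5 TPM for it, so it passed the filter through the Mir140-null group in which it is high, and it was not tested with a filter at a mean of 5 TPM. Lta4h, the leukotriene A4 hydrolase, was the most abundant at 52.2 ± 4.28 and 54.2 ± 4.07 TPM (limma adjusted p = 0.737).

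Genes known to respond to interleukin-1, as Nos2, Ptgs2 and Ptges do, rose in part. Of 22 listed, 21 were tested, 11 rose, 10 did not pass and none fell (none at an unadjusted p under 0.05 in limma either), with a median log2 fold change of 0.84. Mmp3, the matrix metalloproteinase stromelysin-1, rose from 84.3 ± 28.4 to 650 ± 239 TPM (SD, n = 4; log2 fold change 2.94, SE 0.32, limma adjusted p = 0.00405). Ccl2, a monocyte chemokine, rose from 55.4 ± 6.66 to 132 ± 13.5 TPM (1.24, limma adjusted p = 0.0034). Sod2, the mitochondrial superoxide dismutase, rose from 8.32 ± 1.13 to 28.4 ± 11.8 TPM (1.59, limma adjusted p = 0.00978), and Ccl20 from 3.36 ± 0.67 to 6.76 ± 0.72 TPM (0.84, limma adjusted p = 0.0129). Cxcl1, the most abundant of the list, was at 1055 ± 363 and 2231 ± 922 TPM and did not pass (limma adjusted p = 0.0667). The cytokine genes Il6 and Tnf did not pass either (limma adjusted p = 0.831 and 0.40), and Il1b stayed below the filter; these 3 were picked after their values were seen. The 11 include Saa3 and Cxcl5, which reached 0.5 TPM in all 4 Mir140-null but only 2 wild-type libraries and so passed the filter through the group in which they are high. Saa3 (limma adjusted p = 0.04995) was called in 0 of 8 fits with 1 library left out. The count for the list was 6 without wild-type replicate 3, 7 without Mir140-null replicate 1 or 2, and 5 without both. Those 5 were Mmp3, Ccl2, Sod2, Icam1 and Mmp13. Of these, Mmp13 was not among the 11 called with all libraries (limma adjusted p = 0.0967).

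**Figure D5:**
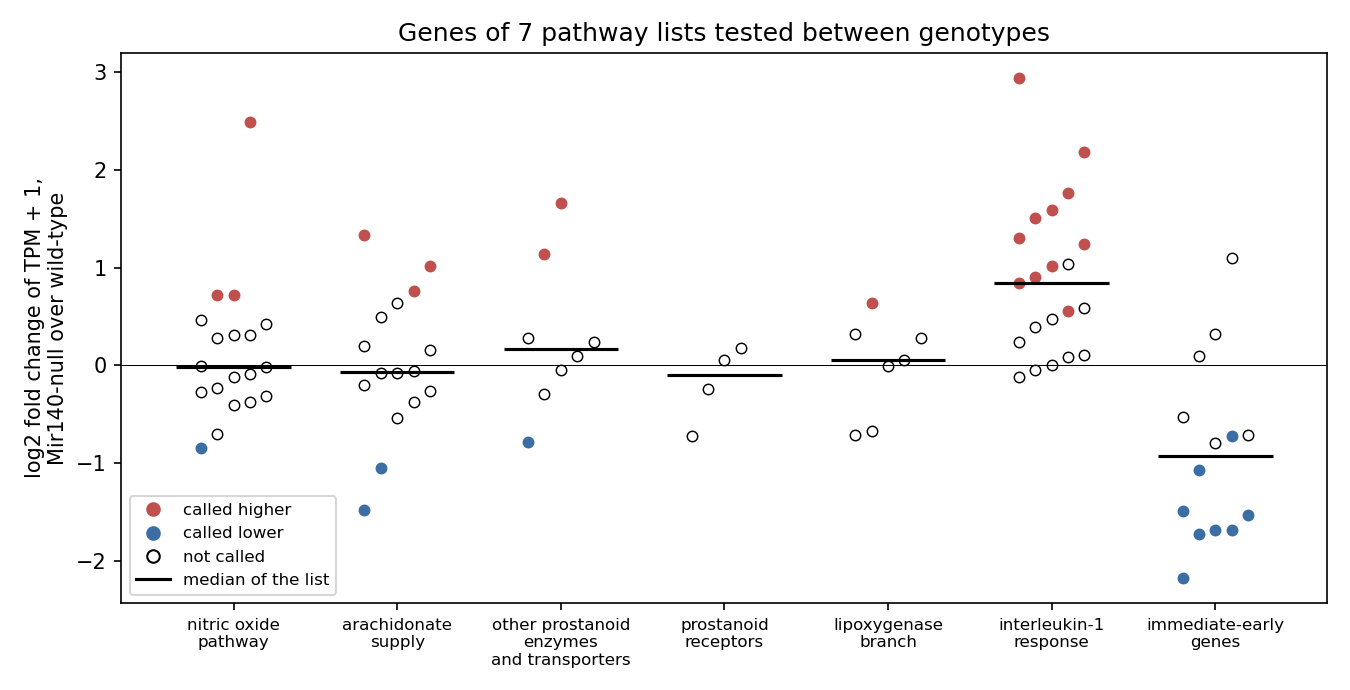
Log2 fold change of TPM + 1, Mir140-null over wild-type, of each tested gene in 7 lists, with genes called higher in red, called lower in blue and not called in white, and black lines at the list medians. The interleukin-1 list has 11 genes called higher, the immediate-early list 8 called lower, and the other lists lie around 0.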

How the data were processed

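RNA of costal chondrocytes from 4 wild-type and 4 Mir140-null mouse samples was analysed, with groups and replicate numbers taken from the sample titles. The authors deposited TPM for each gene identifier and library. Reads (single-end, stranded poly(A) libraries) had been mapped to the mm10 transcriptome with Salmon, whose version is not given in the sources used here, and FastQC 0.11.7 is named in the submitters' processing notes. The TPM hold neither the batch factors nor the count model of the study, and no read counts, so precision is given only by the spread between libraries, which may be partly technical.

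Identifiers on several lines were counted once. Symbols and positions came from GENCODE M21 (GRCm38). All 119 list genes were matched. Genes reaching 0.5 TPM in 4 or more libraries were fitted with limma 3.58.1 in R 4.3.3 on log2(TPM + 1) with a mean-variance trend and genotype as the only term. Benjamini-Hochberg adjusted p-values under 0.05 were called. SE and log2 fold changes are on that scale, which understates changes of low genes. The fit was also run on simulated data with noise drawn independently for each gene and library. Those data lacked the shared difference of Mir140-null replicates 1 and 2, so the run does not check the calls against it. Sequences came from RefSeq tables. Tables were handled with Python 3.11.15, pandas 2.3.3 and NumPy 2.4.6, and figures drawn with matplotlib 3.10.9.

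The members and lists were chosen with earlier results of these data known. Named genes were the 9 members, up to 4 called genes per direction in each list with the smallest p, the most abundant gene of each list, the 3 genes most like each member, and markers moving with a member. Alternatives were quantile normalization, median-ratio scaling, a mean of 5 TPM as the filter, no filter, a pseudocount of 0.1, TPM without mitochondrial genes and genes under 200 bases, a replicate block, 1 factor of unwanted variation from residuals, sample quality weights, leaving out each library, and leaving out Mir140-null replicates 1 and 2 together.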

Additional observations from a re-analysis of the deposited data

Results flagged for a closer look

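Dixon's ratio of the gap of an extreme library to the range of its genotype was computed for the members and the named genes of the lists, 70 groups of 4 libraries in all. It passed its critical value for groups of 4 in 2 groups, where chance gives about 1 group in 20. Pla2g2a, a secreted phospholipase, was at 8.33 TPM in wild-type replicate 2 and at 2.95 to 3.73 TPM in the other wild-type libraries. Prxl2b was at 11.9 TPM in Mir140-null replicate 1 and at 9.60 to 9.98 TPM in the other Mir140-null libraries. None of the 9 members passed in either genotype. The ratio compares 1 extreme library with its neighbour, so it can miss 2 libraries that deviate together, as Mir140-null replicates 1 and 2 did.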

How the results depend on the processing

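All 9 log2 fold changes kept their sign under every alternative run, except those of Ptgis (-0.23 to 0.04 without Mir140-null replicates 1 and 2) and Ptges2 (near 0 throughout), neither called in any. The cause of the changed counts below was not tested. Among all genes, 2897 calls became 1516 with no filter, 1125 with the replicate block, 4476 with 1 factor of unwanted variation and 567 without Mir140-null replicates 1 and 2, and ranged from 1202 to 2767 with 1 library left out. The labels do not say whether the same replicate numbers mark pairs. The correlations of their deviations, 0.031, 0.016, 0.069 and -0.009, cannot settle this. The Mir140-null deviations also hold the difference of replicates 1 and 2 from replicates 3 and 4. The block changed counts of calls only. Members called higher, 4 in the main fit, became 2 with no filter or the replicate block, 0 without Mir140-null replicates 1 and 2 (by limma, with 5 at an unadjusted p under 0.05), and 1 to 4 with 1 library left out. It was 5, with Pla2g4a, under 1 factor of unwanted variation or sample quality weights. The factor was taken from residuals of the genotype fit, so it could change the error of a log2 fold change but not its value. Extra calls with this factor are therefore no further evidence of a difference. With median-ratio scaling or 1 factor, 1 member (Hpgd) was called lower. The nitric oxide list went from 4 calls to 1 with no filter and without Mir140-null replicates 1 and 2, 2 with the replicate block, and 1 to 4 with 1 library left out. The arachidonate list went from 5 to 3 with no filter, 2 with the replicate block and 2 without Mir140-null replicates 1 and 2 (3 to 5 with 1 left out). The other prostanoid list went from 3 to 0 without both libraries (3 at an unadjusted p under 0.05). The receptors went from 0 to 1 with median-ratio scaling or 1 factor (0 to 1 with 1 left out). The lipoxygenase list went from 1 to 0 with no filter, a filter at 5 TPM, the replicate block or without both libraries, and to 2 with 1 factor. The interleukin-1 list went from 11 to 7 with no filter, 6 with the replicate block and 5 without both libraries (6 to 12 with 1 left out). The immediate-early list went from 8 to 3 with the replicate block and 2 without both libraries (7 to 10 with 1 left out). With 1 factor, the nitric oxide and arachidonate lists had 6 calls each, the interleukin-1 list 14 and the immediate-early list 11. Genes called higher were 62.0% of all calls, but 50.9% with median-ratio scaling and 73.1% at a mean of 5 TPM, where the median of all genes was 0.112. Unknown depth limits what low values can show.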

Other observations

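The immediate-early genes, which stimulated cells switch on first and which in many cells include Ptgs2 itself, mostly ran against the inducible enzymes. Of 14 genes listed, all were tested, 8 fell, none rose (2 at an unadjusted p under 0.05) and 6 did not pass in limma, with a median log2 fold change of -0.93. Over all genes tested, 6.4% were called lower and 10.5% higher. Fos, a subunit of AP-1, fell from 1668 ± 772 to 360 ± 143 TPM (SD, n = 4; -2.17, SE 0.35, limma adjusted p = 0.00993), and Fosb from 594 ± 115 to 189 ± 53.8 TPM (-1.68, limma adjusted p = 0.00732). Egr1, a zinc finger transcription factor, fell from 1766 ± 271 to 623 ± 158 TPM (-1.53, limma adjusted p = 0.00596), and Atf3, the most abundant gene of the list, from 2464 ± 895 to 752 ± 171 TPM (-1.68, limma adjusted p = 0.00969). Ier3, which was not called, went the other way, from 394 ± 44.3 to 961 ± 539 TPM (1.1, limma adjusted p = 0.0833). In wild-type libraries, replicate 1 had the highest Fos, Egr1 and Atf3, and also the lowest Ptgs2. Mir140-null libraries did not share this order. Egr1 and Ptgs2 were both highest in replicate 4, Fos was highest in replicate 3, and Atf3 was highest in replicate 2, where Ptgs2 was lowest. Without Mir140-null replicates 1 and 2, 2 of the 8 genes passed, Fosb and Egr1, while the log2 fold changes of those that did not were -1.87 for Fos, -1.54 for Atf3, -1.54 for Jun, -1.27 for Ier2, -1.09 for Nr4a1 and -0.53 for Dusp1, beside -2.17, -1.68, -1.72, -1.49, -1.07 and -0.72 with all libraries. Ier3, Jun, Ier2, Nr4a1 and Dusp1 were named after their values were seen.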
